A study of Homo sapiens with 16 samples.

Results

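The MYC and MAX network was followed at the RNA level in pancreatic cancer cells given gemcitabine. Its 9 genes, of 58735 in each deposited table, were taken by symbol: the activators MYC and MYCL, their partner MAX, the MXD antagonists MXD1, MXD3, MXD4 and MXI1, and the further repressors MNT and MGA. RNA enriched for poly-A was sequenced from BxPC3 and PANC-1, human lines of pancreatic ductal adenocarcinoma, in 4 groups of 4 libraries: PANC-1 with gemcitabine, PANC-1 control, BxPC3 with gemcitabine and BxPC3 control. Gemcitabine is a deoxycytidine analogue that is phosphorylated in the cell and blocks DNA synthesis. No allele, dose, exposure time or vehicle is given in the labels, and each line stands for 1 tumour. Separate cultures are not stated for the replicates, so every p-value reflects library spread, which may be technical only.

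MYC proteins bind DNA only as dimers with MAX, at E-boxes such as CACGTG, and recruit co-activators to genes of growth, ribosome assembly and metabolism. MXD proteins, MNT and MGA compete for the same partner and the same sites, and the MXD proteins and MNT recruit SIN3 co-repressors there. In pancreatic cancer MYC is known as a driver of tumour growth.

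Depth ranged over the 16 libraries from 22152034 to 37777222 reads in listed genes. SMAD4, which BxPC3 is known to lack, had 0 reads in every BxPC3 library and 3.03 to 4.04 FPKM in PANC-1, and CDKN2A had 0 reads throughout. The epithelial markers EPCAM, KRT8, KRT18 and KRT19 were all expressed in every library. The blood cell marker PTPRC had at most 8 reads and the fibroblast marker DCN at most 9. The endothelial marker PECAM1 stayed at or below 0.857 FPKM and the fibroblast marker PDGFRA at or below 0.185 FPKM, while COL1A1, a collagen of fibroblasts, stood at 1.598 to 11.9 FPKM. PANC-1 gemcitabine replicate 1 stood apart. Each library was set against the mean of the other libraries of its group. In replicate 1, genes of the upper GC quartile deviated by a median of 0.45 (log2), and genes of the lower GC quartile by -0.42. In the other 15 libraries these medians lay between -0.17 and 0.15. PANC-1 results for the members and the counts of listed genes are therefore given with and without that library.

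Levels are FPKM, fragments per kilobase of merged exon with a scaling per library, as deposited. The length used is that of all annotated exons of a gene, not of the transcripts present. Orders, sums, shares and ratios across genes are therefore of FPKM and not of transcript numbers. Log2 changes are gemcitabine minus control of log2(FPKM + 1), where the added constant makes changes of low genes look smaller. They were tested with limma, with Benjamini-Hochberg adjustment over all tested genes and a threshold of 0.05. The tables of the lines were normalized separately, so levels were not tested across lines.

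In BxPC3 the RNA of the activator MYC was about level while most of its antagonists fell. MYCL and MXI1 were lower by a large margin with gemcitabine, at 0.205 and 0.290 of the control level. MXD4, MXD3, MAX and MNT fell less, and MXD1 was the single member that rose. By limma, 1 of 9 tested members rose, 6 fell and 2 did not pass, against 73.4% of all 12215 tested genes called, so the share of members called was near that of genes at large. In 6 members the gemcitabine and control libraries did not overlap, a separation seen in 67.5% of tested genes. In bulk RNA, fewer cells that express a gene and less of its RNA per cell cannot be told apart.

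In PANC-1, as in BxPC3, MXI1 and MAX fell and MXD1 rose. MXI1 and MAX stood at 0.537 and 0.827 of their control level and MXD1 at 1.21 times. By limma, 1 of 7 tested members rose, 2 fell and 4 did not pass, against 44.8% of 12508 tested genes called, and in 3 members the groups did not overlap, against 45.8% of tested genes. MYCL and MXD3 were below the filter of 1 FPKM in 4 libraries and were not tested. Without gemcitabine replicate 1, 5 members were called, against 69.8% of tested genes.

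**Figure D1:**
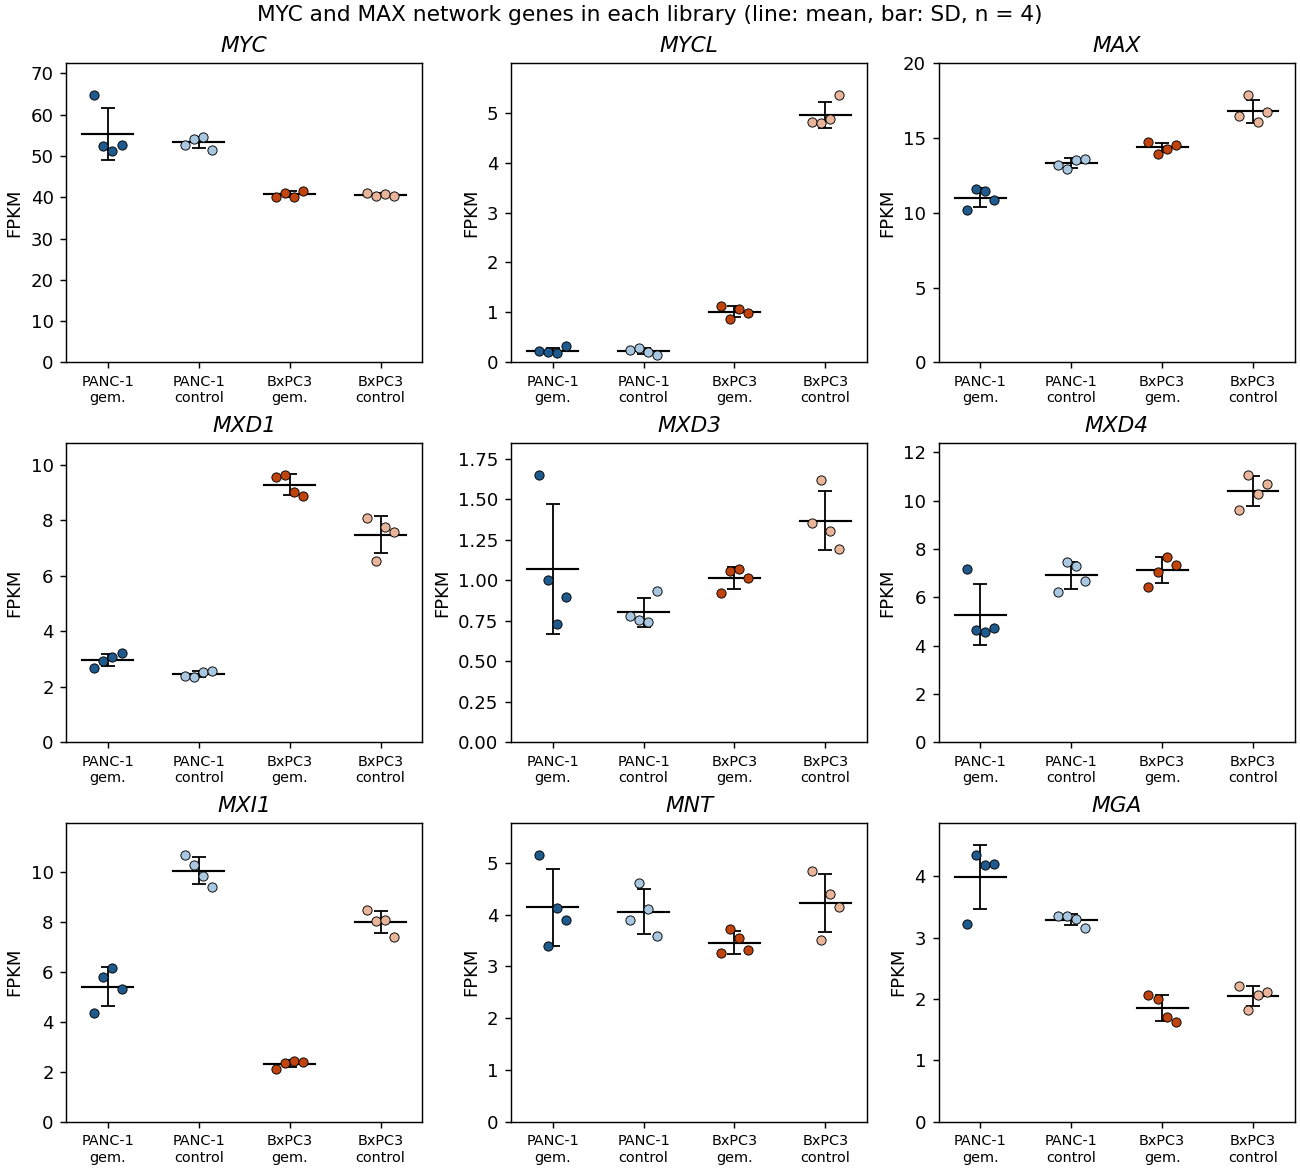
FPKM of the 9 network genes (y axes, linear and starting at 0) in each library of PANC-1 and BxPC3, gemcitabine left of control; points are libraries, lines means and bars SD (n = 4). MYC lies at about the same height in both BxPC3 groups, MYCL and MXI1 libraries with gemcitabine lie below every BxPC3 control, and PANC-1 gemcitabine replicate 1 is the high point of its group for MYC, MXD3, MXD4 and MNT.

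MYC, the broad activator of growth genes, lies on chromosome 8 (ENSG00000136997, GRCh38 chr8:127735434-127741434, plus strand). BxPC3 libraries held MYC at 40.1, 41.1, 40.2 and 41.5 FPKM with gemcitabine, against 40.9, 40.3, 40.8 and 40.3 FPKM in controls. All 8 libraries lay within a narrow band and the groups overlapped. The mean was 40.7 ± 0.692 FPKM with gemcitabine and 40.6 ± 0.338 FPKM in controls (SD, n = 4 each). The log2 change was 0.0038 (95% interval -0.064 to 0.072; limma adjusted p = 0.915). Only 0.753% of tested genes had a smaller absolute change, in a line where most genes were called. With libraries scaled to equal sums the change was 0.089 (limma adjusted p = 0.0580). In PANC-1 MYC had 64.8, 52.5, 51.2 and 52.6 FPKM with gemcitabine, against 52.7, 54.1, 54.7 and 51.6 FPKM in controls. Replicate 1 alone was high and the other gemcitabine libraries lay in or just below the control range. The log2 change was 0.046 (95% interval -0.13 to 0.23; limma adjusted p = 0.673) with all libraries and -0.031 (limma adjusted p = 0.399) without that replicate. MYC had the highest level of the 9 genes in all 4 groups, and MAX the next.

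The RNAs most like MYC over the 16 libraries, by root mean square difference of log2(FPKM + 1) from the control mean of their line, were CTTN (0.0352), PI4KB (0.0382), GMIP (0.0388), UBL4A (0.0437) and UNC119 (0.0468), of 9764 protein-coding genes compared. None of these 5 passed the test in either line, which follows from their being chosen as nearest to MYC in the same libraries.

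MYCL, the member of the MYC family first found in small cell lung cancer, lies on chromosome 1 (ENSG00000116990, GRCh38 chr1:39895426-39902256, minus strand). Its BxPC3 levels were 1.14, 0.875, 1.07 and 0.980 FPKM with gemcitabine, against 4.81, 4.78, 4.87 and 5.35 FPKM in controls. Every gemcitabine library lay far below every control. The log2 change was -1.56 ± 0.05 (SE; limma adjusted p = 4.89e-09), and 115 of the 12215 tested genes had a lower one. On recovered reads, with no constant added, limma-voom gave -2.30. In PANC-1 MYCL was scarce, with 0.227, 0.209, 0.186 and 0.319 FPKM with gemcitabine, against 0.256, 0.277, 0.210 and 0.152 FPKM in controls. These values rest on 24 to 52 reads per library with gemcitabine and 19 to 35 in controls, and the groups overlapped. With no filter, over 33218 genes, the PANC-1 log2 change was 0.014 (limma adjusted p = 0.885). MYCL made up 2.43% ± 0.297 of the summed MYC and MYCL FPKM in BxPC3 with gemcitabine and 10.9% ± 0.566 in BxPC3 controls (SD, n = 4 each). MYCN, which is no member of the set but completes the MYC family and was looked up after the values were seen, had at most 2 reads in any library.

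MAX, the common partner of the network, lies on chromosome 14 (ENSG00000125952, GRCh38 chr14:65006174-65102695, minus strand). BxPC3 libraries had 14.7, 14.0, 14.3 and 14.5 FPKM with gemcitabine, against 16.4, 17.9, 16.1 and 16.7 FPKM in controls. The groups were close but did not overlap, with every gemcitabine library lower. The log2 change was -0.21 ± 0.04 (SE; limma adjusted p = 0.000804). In PANC-1 MAX had 10.2, 11.6, 11.4 and 10.9 FPKM with gemcitabine, against 13.2, 12.9, 13.6 and 13.6 FPKM in controls. Again every gemcitabine library was lower, and the fall was small. The PANC-1 log2 change was -0.25 ± 0.06 (SE; limma adjusted p = 0.00701), and -0.22 without gemcitabine replicate 1 (limma adjusted p = 0.000297). MAX thus stood at 0.827 of its control level in PANC-1 and at 0.856 in BxPC3. The ratio of MAX to MYC FPKM averaged 0.353 ± 0.0112 with gemcitabine and 0.413 ± 0.0219 in controls of BxPC3 (SD, n = 4 each).

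MXI1, an MXD protein and a repressor through SIN3, lies on chromosome 10 (ENSG00000119950, GRCh38 chr10:110207605-110287365, plus strand). Its levels in BxPC3 were 2.12, 2.34, 2.42 and 2.40 FPKM with gemcitabine, against 8.49, 8.04, 8.09 and 7.42 FPKM in controls. The gemcitabine libraries were tightly grouped far below the controls. The log2 change was -1.44 ± 0.05 (SE; limma adjusted p = 4.65e-09), and 163 of the 12215 tested genes had a lower one. In PANC-1 MXI1 had 4.36, 5.79, 6.17 and 5.32 FPKM with gemcitabine, against 10.7, 10.3, 9.85 and 9.42 FPKM in controls. Every gemcitabine library was lower, and replicate 1 was the lowest. The PANC-1 log2 change was -0.79 ± 0.09 (SE; limma adjusted p = 0.000167), a level of 0.537 of control, and 304 of 12508 tested genes had a lower change. Without replicate 1 the log2 change was -0.71 (limma adjusted p = 7.38e-07) and the level 0.572 of control.

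MXD4, an MXD protein found in differentiating cells, lies on chromosome 4 (ENSG00000123933, GRCh38 chr4:2247432-2262294, minus strand). In BxPC3 it had 6.43, 7.06, 7.68 and 7.35 FPKM with gemcitabine, against 9.61, 11.1, 10.3 and 10.7 FPKM in controls. All gemcitabine libraries were below all controls, with a log2 change of -0.49 ± 0.06 (SE; limma adjusted p = 3.00e-05). PANC-1 libraries held 7.17, 4.66, 4.57 and 4.74 FPKM with gemcitabine, against 6.22, 7.44, 7.28 and 6.67 FPKM in controls. Replicates 2 to 4 lay below every control, while replicate 1 lay among the controls. The PANC-1 log2 change of -0.35 ± 0.13 did not pass (SE; limma adjusted p = 0.0516), and without replicate 1 it was -0.48 and passed (limma adjusted p = 2.06e-05).

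MXD1, the founding member of the MXD family and a gene known to rise in differentiation, lies on chromosome 2 (ENSG00000059728, GRCh38 chr2:69897688-69942945, plus strand). BxPC3 had MXD1 at 9.56, 9.64, 9.03 and 8.87 FPKM with gemcitabine, against 8.07, 6.52, 7.74 and 7.56 FPKM in controls. Unlike the other MXD genes it was higher in every gemcitabine library, with a log2 change of 0.28 ± 0.06 (SE; limma adjusted p = 0.00166). PANC-1 had MXD1 at 2.69, 2.93, 3.06 and 3.20 FPKM with gemcitabine, against 2.38, 2.34, 2.54 and 2.56 FPKM in controls. The groups did not overlap, though replicate 1 lay close to the highest control. The PANC-1 log2 change was 0.20 ± 0.06 (SE; limma adjusted p = 0.0229), a call that was lost on leaving out control replicate 1 or 2 or gemcitabine replicate 3 or 4 (limma adjusted p 0.0635 to 0.0681). Without gemcitabine replicate 1 the change was 0.23 (limma adjusted p = 0.00126). MXD1 stood at 1.21 times its control level in PANC-1 and 1.24 times in BxPC3. It shares 3.73% of its exonic bases with SNRNP27 on the same strand. SNRNP27 averaged 6.47 FPKM with gemcitabine and 5.24 FPKM in controls of BxPC3, and 11.3 and 9.59 FPKM in the same groups of PANC-1. The part of SNRNP27 in the MXD1 values was not tested.

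MXD3, an MXD protein linked to the S phase of the cell cycle, lies on chromosome 5 (ENSG00000213347, GRCh38 chr5:177301461-177312757, minus strand). In BxPC3 it had 0.920, 1.06, 1.07 and 1.01 FPKM with gemcitabine, against 1.35, 1.62, 1.30 and 1.19 FPKM in controls. The groups lay near each other without overlap, and the log2 change was -0.23 ± 0.06 (SE; limma adjusted p = 0.00625). PANC-1 libraries had 1.65, 1.001, 0.730 and 0.898 FPKM with gemcitabine, against 0.777, 0.753, 0.742 and 0.937 FPKM in controls, with replicate 1 alone far above the rest. MXD3 shares 40.4% of its exonic bases with other genes, PRELID1 on the opposite strand (22.5%) and RAB24 on the same strand (18.0%). How its reads were divided is uncertain. PRELID1 averaged 63.4 FPKM with gemcitabine and 38.3 FPKM in controls of BxPC3, and 62.1 and 56.7 FPKM in the same groups of PANC-1. RAB24 averaged 2.41 FPKM with gemcitabine and 2.73 FPKM in controls of BxPC3, and 5.69 and 6.32 FPKM in the same groups of PANC-1. The part of either gene in the MXD3 values was not tested.

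The 4 MXD genes summed to a lower level with gemcitabine in both lines, and their make-up shifted. Their summed level was 19.7 ± 0.532 FPKM with gemcitabine and 27.3 ± 0.286 FPKM in controls of BxPC3 (SD, n = 4 each). In PANC-1 it was 14.7 ± 0.770 FPKM with gemcitabine (14.4 ± 0.186 without replicate 1, n = 3) and 20.2 ± 0.519 FPKM in controls. MXI1 made up 11.8% ± 0.462 of that sum with gemcitabine and 29.4% ± 1.33 in controls of BxPC3. In PANC-1 its share was 36.9% ± 6.63 with gemcitabine (40.1% ± 2.44 without replicate 1, n = 3) and 49.8% ± 2.43 in controls. MXD1 took 47.0% ± 2.59 with gemcitabine and 27.4% ± 2.38 in controls of BxPC3, and 20.2% ± 2.38 with gemcitabine (21.3% ± 1.14 without replicate 1, n = 3) and 12.1% ± 0.765 in controls of PANC-1. MXD1 thus had the highest FPKM of the MXD genes in BxPC3 with gemcitabine, where MXD4 led in controls.

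The ratio of MYC to summed MXD FPKM is given as a description, since a score over chosen members was not tested. In BxPC3 it was 2.11, 2.05, 1.99 and 2.11 with gemcitabine, against 1.49, 1.48, 1.49 and 1.501 in controls. In PANC-1 it was 4.08, 3.65, 3.53 and 3.72 with gemcitabine, against 2.63, 2.60, 2.68 and 2.63 in controls. Every gemcitabine library lay above every control of its line. In BxPC3 MYC was level, so the higher ratio came from the lower MXD sum. The PANC-1 mean was 3.75 ± 0.238 with gemcitabine (n = 4), 3.63 ± 0.0964 without its replicate 1 (n = 3), and 2.64 ± 0.0335 in controls (SD, n = 4). MYC and MYCL together were not level in BxPC3, at 41.7 ± 0.607 FPKM with gemcitabine and 45.6 ± 0.313 FPKM in controls (SD, n = 4 each). With MYCL added to MYC, the BxPC3 ratio was 2.11 ± 0.0612 with gemcitabine and 1.67 ± 0.0203 in controls. The PANC-1 ratio was then 3.76 ± 0.238 with gemcitabine (3.65 ± 0.101 without replicate 1, n = 3) and 2.65 ± 0.0323 in controls. The ratio of RNA levels says nothing of the amounts of protein or of dimers.

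**Figure D2:**
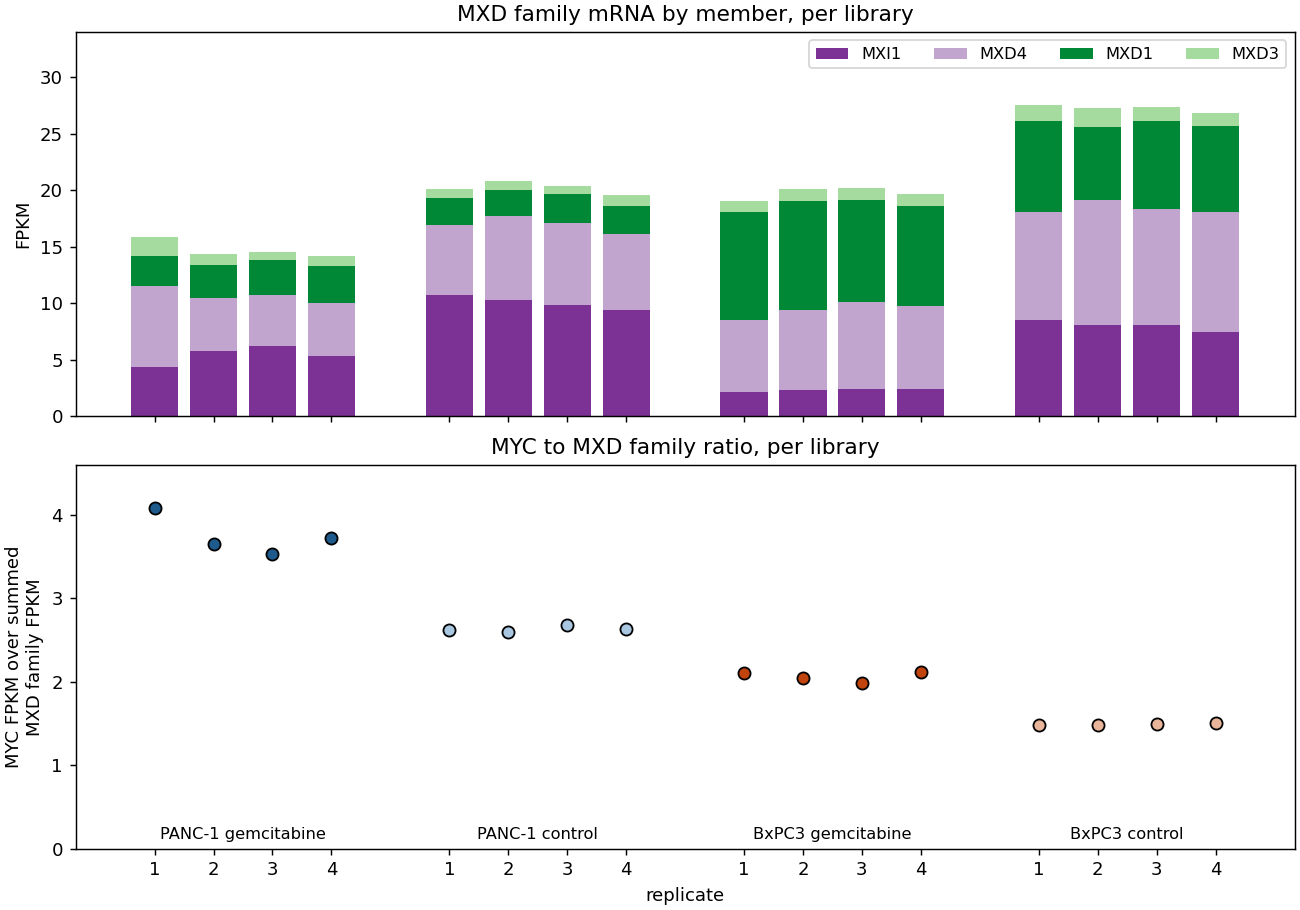
Summed FPKM of the 4 MXD genes by member (upper panel, stacked bars from 0) and the ratio of MYC FPKM to that sum (lower panel) in each library, gemcitabine left of control in each line. The MXI1 segment shrinks with gemcitabine in both lines and the ratio is higher in every gemcitabine library, at 3.53 to 4.08 against 2.60 to 2.68 in PANC-1 controls and at 1.99 to 2.11 against 1.48 to 1.501 in BxPC3 controls.

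MNT, a broadly expressed repressor that pairs with MAX, lies on chromosome 17 (ENSG00000070444, GRCh38 chr17:2384060-2401118, minus strand). BxPC3 libraries had MNT at 3.25, 3.72, 3.54 and 3.32 FPKM with gemcitabine, against 4.84, 3.51, 4.40 and 4.14 FPKM in controls. Control replicate 2 lay among the gemcitabine libraries, so the groups overlapped. The log2 change was -0.22 ± 0.08 (SE; limma adjusted p = 0.0216), a call lost on leaving out control replicate 1 or 3 or gemcitabine replicate 1 or 4 (limma adjusted p 0.0511 to 0.0586). In PANC-1 MNT had 5.16, 3.39, 4.13 and 3.90 FPKM with gemcitabine, against 3.90, 4.61, 4.12 and 3.58 FPKM in controls. Replicate 1 was highest and the groups overlapped, with a log2 change of 0.019 (95% interval -0.23 to 0.27; limma adjusted p = 0.903) and of -0.071 without replicate 1 (limma adjusted p = 0.419).

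MGA, a very large protein that pairs with MAX and recruits the PRC1.6 repressor complex, lies on chromosome 15 (ENSG00000174197, GRCh38 chr15:41621224-41773081, plus strand). In BxPC3 it had 2.07, 2.00, 1.71 and 1.62 FPKM with gemcitabine, against 2.21, 1.81, 2.06 and 2.12 FPKM in controls. The groups overlapped, and the log2 change of -0.099 did not pass (95% interval -0.25 to 0.047; limma adjusted p = 0.196). PANC-1 libraries showed 3.22, 4.35, 4.19 and 4.20 FPKM with gemcitabine, against 3.36, 3.35, 3.30 and 3.17 FPKM in controls. Replicates 2 to 4 lay above every control, while replicate 1 lay within the control range. The PANC-1 log2 change was 0.21 ± 0.08 (SE; limma adjusted p = 0.0606) with all libraries and 0.29 without replicate 1, where it passed (limma adjusted p = 9.32e-05).

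PANC-1 gemcitabine replicate 1 departed from its group for most members too. It lay above the mean of the other 3 gemcitabine libraries (log2) by 0.53 for MXD4, 0.50 for MXD3, 0.36 for MNT and 0.31 for MYC, whose longest transcripts hold 57.6%, 61.3%, 61.4% and 53.9% GC. It lay below them for MXI1 (-0.33), MGA (-0.31), MAX (-0.14) and MXD1 (-0.14), with 43.7%, 42.0%, 51.3% and 42.7% GC. MYCL, with 55.1% GC and few reads, deviated by -0.011. After removal of each library's GC trend, the PANC-1 log2 change was -0.34 for MXD4 (limma adjusted p = 0.000647) and 0.19 for MGA (limma adjusted p = 0.00194), and both then passed.

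E-boxes in the members' own promoters are shown because network factors can bind the genes of the network. Windows of 300 bases, 250 before to 50 after each start, were taken from RefSeq on GRCh38.p14, with 13 windows for 8 members. MYC had no window in the source used, so its promoter was not searched. CACGTG, which is its own reverse complement, occurred in 2 of the 13 windows, those of MXD4 and MNT, and in 7.26% of 35116 windows of all genes. The variant CACGCG, searched on either strand and never the same bases as CACGTG, occurred in 3 of the 13, in MXD3, MXI1 and MGA, against 11.4% of all windows. A match is a description of letters and shows no binding. The stretches around 3 of these sites follow 5′ to 3′ on the gene's strand, with the site in capitals: MXD4 at chr4:2262302-2262359 (minus strand, site 238 bases before the start), MNT at chr17:2401208-2401293 (minus strand, 193 bases before) and MGA at chr15:41660344-41660404 (plus strand, at an internal start, 21 bases before).
MXD4: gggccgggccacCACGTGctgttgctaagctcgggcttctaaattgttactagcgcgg
MNT: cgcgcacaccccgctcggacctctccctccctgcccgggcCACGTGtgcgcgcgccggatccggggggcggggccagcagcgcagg
MGA: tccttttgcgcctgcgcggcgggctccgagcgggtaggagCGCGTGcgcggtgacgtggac

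The order of levels within each group set MYC first and MAX next. In BxPC3 with gemcitabine MXD1, MXD4, MNT, MXI1, MGA, MXD3 and MYCL followed, and only MXD3 and MYCL overlapped. In BxPC3 controls the order after MAX was MXD4, MXI1, MXD1, MYCL, MNT, MGA and MXD3, where MXI1 overlapped MXD1 and MYCL overlapped MNT. In PANC-1 with gemcitabine it was MXI1, MXD4, MNT, MGA, MXD1, MXD3 and MYCL, and each of the first 4 of these overlapped its neighbour. In PANC-1 controls the same genes followed in the same order and no neighbours overlapped. MYCL thus stood 6th of 9 in BxPC3 controls and last in the other groups.

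The response to gemcitabine was then compared between the lines, as the PANC-1 change minus the BxPC3 change. Of 9 tested members 4 had a higher change in PANC-1, 0 a lower one and 5 did not pass, against 51.8% of 14134 tested genes called. Of these 4, MYCL and MXD3 had been below the filter in PANC-1 alone, with at least 1 FPKM in 0 and 2 PANC-1 libraries, against 6 and 7 BxPC3 libraries. The PANC-1 control level of MYCL allows a fall of no more than -0.29 on this scale, so most of its difference of 1.58 ± 0.08 was set by that level (SE; limma adjusted p = 8.52e-11). For MXI1, which fell in both lines, the difference was 0.64 ± 0.11 (SE; limma adjusted p = 0.000106), so that its fall was smaller in PANC-1, and without PANC-1 gemcitabine replicate 1 the difference was 0.73. MXD3 differed by 0.41 ± 0.14 (SE; limma adjusted p = 0.0214), and MGA by 0.31 ± 0.10 (SE; limma adjusted p = 0.0201). Without PANC-1 gemcitabine replicate 1 these were 0.29 for MXD3 and 0.39 for MGA.

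The remaining members showed no difference between the lines that passed. The difference was 0.042 for MYC (95% interval -0.14 to 0.22; limma adjusted p = 0.709), -0.044 for MAX (95% interval -0.19 to 0.10; limma adjusted p = 0.613) and -0.082 for MXD1 (95% interval -0.26 to 0.097; limma adjusted p = 0.444). For MXD4 it was 0.14 (95% interval -0.17 to 0.45; limma adjusted p = 0.441) and for MNT 0.24 (95% interval -0.049 to 0.54; limma adjusted p = 0.154). With all libraries, these intervals leave room for differences of the size seen for MGA in MXD4 and MNT, but not in MYC, MAX and MXD1. Without PANC-1 gemcitabine replicate 1 the difference was 0.0090 for MXD4 (95% interval -0.17 to 0.19) and 0.15 for MNT (95% interval -0.092 to 0.40). That left such room in MNT but not in MXD4. In the same fit it was -0.035 for MYC, -0.0093 for MAX and -0.047 for MXD1, and none of these 5 passed.

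**Figure D3:**
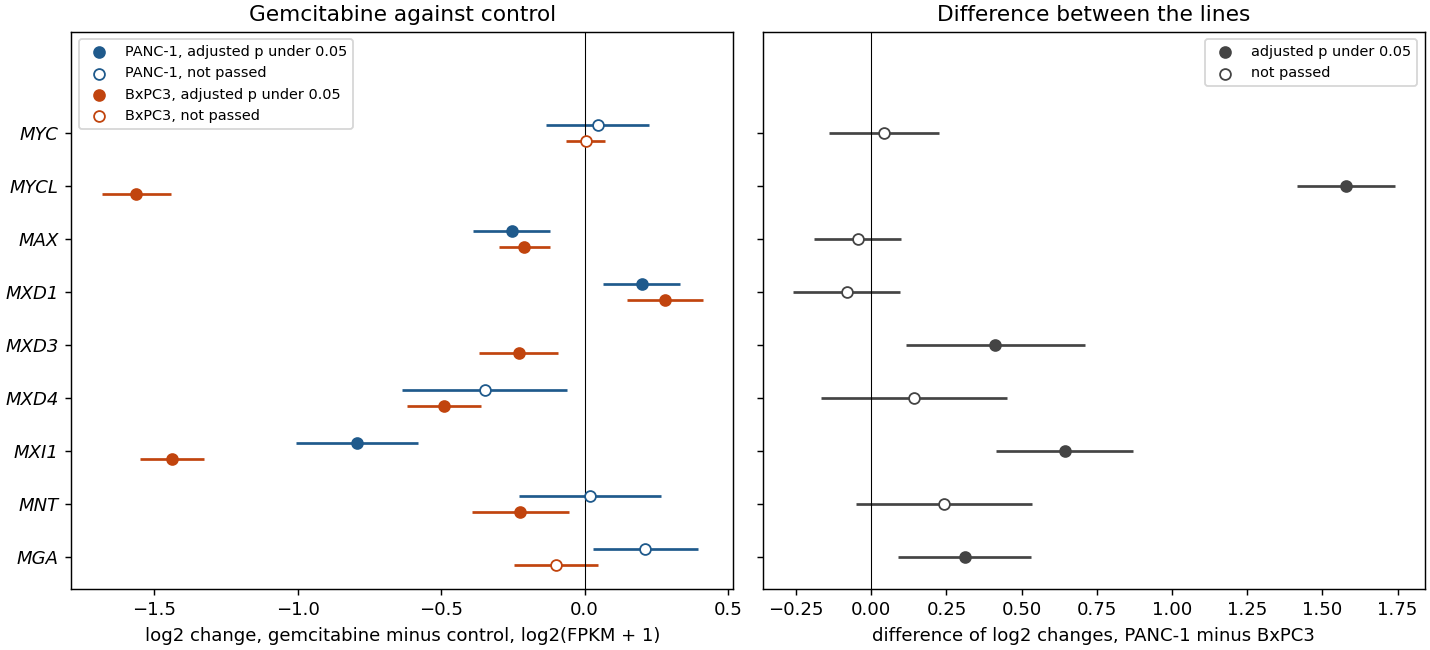
Log2 change of each member, gemcitabine minus control (left; PANC-1 above BxPC3 within a gene), and its difference, PANC-1 minus BxPC3 (right); points are limma estimates, bars 95% intervals, and filled points passed the threshold of 0.05. MYC straddles 0 in all 3 comparisons, and MYCL and MXI1 have the lowest BxPC3 changes, -1.56 and -1.44; MYCL and MXD3 were not tested in PANC-1 alone.

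Genes around the network were read from 10 lists, 158 of whose 160 members had 1 matching gene. In BxPC3 37.3% of tested genes rose and 36.1% fell, with a median log2 change of 0.0044. In PANC-1 20.7% rose and 24.0% fell, with a median of -0.024, and 32.8% and 37.0% without gemcitabine replicate 1.

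The MLX branch is the sister network, in which MLX pairs with the glucose sensors MLXIP and MLXIPL and with some MXD proteins. In BxPC3 1 of 4 tested genes rose and 2 fell, with a median log2 change of -1.02. In PANC-1 0 of 5 rose and 4 fell, with a median of -0.38, and all 5 fell without gemcitabine replicate 1. MLXIP averaged 10.02 ± 1.33 FPKM with gemcitabine and 21.1 ± 1.26 FPKM in controls of PANC-1 (SD, n = 4 each; limma adjusted p = 3.10e-05), and 11.1 ± 0.709 FPKM with gemcitabine and 11.03 ± 1.01 FPKM in controls of BxPC3 (limma adjusted p = 0.892). Its target ARRDC4, an arrestin-like regulator of glucose uptake, averaged 3.99 ± 0.548 FPKM with gemcitabine and 5.32 ± 0.229 FPKM in controls of PANC-1, and 4.66 ± 0.434 FPKM with gemcitabine and 22.3 ± 0.279 FPKM in controls of BxPC3 (difference in log2 change 1.70 ± 0.10, SE; limma adjusted p = 1.22e-09). TXNIP, the other classic target, stood at 0.759 of its control level in PANC-1 and at 0.0988 in BxPC3, with a difference in log2 change of 2.94 ± 0.06 (SE; limma adjusted p = 8.14e-15). The MLXIP change differed by -1.02 ± 0.12 (SE, limma adjusted p = 2.09e-06), with the lower change in PANC-1. MLXIPL, at 0.842 FPKM with gemcitabine and 1.62 FPKM in controls of PANC-1, lay near the filter there and was not tested in BxPC3. Any link of these changes to those of TXNIP and ARRDC4 was not tested.

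Targets that MYC is known to activate rose widely in BxPC3, where MYC RNA was level. Of 26 tested targets of the nucleolus and ribosome assembly, 25 rose and 0 fell, with a median log2 change of 0.59. NOP56, a core protein of box C/D snoRNPs, averaged 54.4 ± 1.82 FPKM with gemcitabine and 26.01 ± 0.465 FPKM in controls (SD, n = 4 each; log2 change 1.04, limma adjusted p = 4.30e-09). TCOF1, a nucleolar factor of rRNA synthesis, was at 2.22 times its control level. Of 29 targets outside ribosome assembly, 24 rose and 2 fell, with a median of 0.41. ODC1, the first enzyme of polyamine synthesis, averaged 33.5 ± 2.36 FPKM with gemcitabine and 9.50 ± 0.811 FPKM in controls (SD, n = 4 each; log2 change 1.72, limma adjusted p = 9.21e-09), and SRM, which makes spermidine, was at 2.22 times its control level.

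The same targets moved less in PANC-1. Of 26 nucleolar targets 8 rose and 2 fell, with a median of 0.19, and 15 rose and 5 fell without gemcitabine replicate 1, while 5 rose and 0 fell without control replicate 1. The change was lower in PANC-1 than in BxPC3 for 17 of these 26 and higher for 1, against 26.6% and 25.2% of all tested genes. Without gemcitabine replicate 1 it was lower for 20 and higher for 2, against 4685 and 4509 of all 14134 tested genes. RCL1, a factor of 18S rRNA processing, was at 1.35 times its control level in PANC-1 and TCOF1 at 1.27 times. Of 28 targets outside ribosome assembly 6 rose and 2 fell, with a median of 0.02, and 9 rose and 9 fell without gemcitabine replicate 1. For these the change was lower in PANC-1 for 19 of 29 genes and higher for 1, and lower for 23 and higher for 2 without that library. ODC1 averaged 159 ± 3.64 FPKM with gemcitabine and 104 ± 4.49 FPKM in controls of PANC-1 (SD, n = 4 each; log2 change 0.61, limma adjusted p = 2.04e-05). HK2, a hexokinase of glycolysis, averaged 8.10 ± 0.507 FPKM with gemcitabine and 1.68 ± 0.0797 FPKM in controls (SD, n = 4 each; log2 change 1.76, limma adjusted p = 1.28e-07).

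Genes that MYC is known to repress went both ways, with 4 of 8 higher and 4 lower in BxPC3, and 3 of 7 higher and 1 lower in PANC-1 (4 and 1 without gemcitabine replicate 1). NDRG1, a gene of stress and differentiation, averaged 21.5 ± 2.09 FPKM with gemcitabine and 4.78 ± 0.228 FPKM in controls of PANC-1. In BxPC3 it averaged 5.95 ± 0.171 FPKM with gemcitabine and 17.1 ± 0.218 FPKM in controls (SD, n = 4 each). It rose in PANC-1 and fell in BxPC3, with a difference in log2 change of 3.33 ± 0.08 (SE; limma adjusted p = 3.39e-14). THBS1, an inhibitor of vessel growth, was at 4.06 times its control level in BxPC3 and at 1.49 times in PANC-1. CDKN1A, the p21 inhibitor of cyclin-dependent kinases, was at 3.04 times its control level in PANC-1 and at 2.01 times in BxPC3.

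Among MYC cofactors 11 of 18 rose and 1 fell in BxPC3, with a median of 0.21. WDR5, which anchors MYC on chromatin, and the ATPase RUVBL1 were each at 1.42 times their control level there. In PANC-1 1 of 18 rose and 2 fell, with a median of 0.05, and 2 rose and 5 fell without gemcitabine replicate 1. SMARCB1, a SWI/SNF subunit that binds MYC, was at 1.49 times its control level in PANC-1 and the scaffold TRRAP at 0.781. In BxPC3 SMARCB1 was at 1.16 times its control level and TRRAP at 1.33 times.

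Among regulators of MYC protein turnover 9 of 17 rose and 4 fell in BxPC3, and 7 of 18 rose and 1 fell in PANC-1, with 9 and 2 without gemcitabine replicate 1. Leading in both lines were the mitotic kinases AURKA and PLK1, which are known to protect MYC family proteins from degradation. AURKA averaged 20.02 ± 1.45 FPKM with gemcitabine and 7.39 ± 0.340 FPKM in controls of PANC-1, and 31.5 ± 0.460 FPKM with gemcitabine and 9.998 ± 0.327 FPKM in controls of BxPC3 (SD, n = 4 each). PLK1 was at 6.51 times its control level in PANC-1 and at 3.29 times in BxPC3. Both are also genes of mitosis, whose RNA follows the cell cycle.

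Of 17 SIN3 subunits 5 rose and 6 fell in BxPC3, shares close to those of all genes, with 8 and 2 under scaling to equal sums, and 3 rose and 7 fell in PANC-1, with 5 and 8 without gemcitabine replicate 1. SIN3A, the scaffold that MXD proteins bind, was at 0.783 of its control level in PANC-1 (limma adjusted p = 0.000911) and at 0.812 in BxPC3 (limma adjusted p = 0.00527). SAP18 was at 1.55 times its control level in PANC-1 and at 0.994 in BxPC3, where it did not pass. BRMS1 was at 1.77 times its control level in BxPC3 and at 1.27 times in PANC-1, and RBBP4 at 0.816 and 0.794. Of the MGA partners in PRC1.6, 6 of 12 rose and 3 fell in BxPC3, and 0 of 13 rose and 1 fell in PANC-1, with 6 and 2 without gemcitabine replicate 1. TFDP2, a dimer partner of E2F proteins, fell in both lines, to 0.594 of its control level in PANC-1 and 0.555 in BxPC3, while TFDP1 was at 1.35 times its control level in BxPC3. CBX3 in PANC-1 had a log2 change of 0.33 that did not pass (limma adjusted p = 0.112). It passed without gemcitabine replicate 1 (0.50, limma adjusted p = 7.22e-06) and after GC removal (0.30, limma adjusted p = 0.00231).

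Of 14 germline genes that PRC1.6 is known to silence, 2 were tested in each line. SYCE2 and SMC1B did not pass in BxPC3 (limma adjusted p = 0.239 and 0.488), and TDRKH and ZCWPW1 fell in PANC-1, to 0.758 and 0.813 of their control level. Of the 6 non-coding genes beside MYC with a match, 2 were tested in BxPC3 and 1 in PANC-1. CASC19 averaged 1.18 ± 0.0686 FPKM with gemcitabine and 0.362 ± 0.0506 FPKM in controls of BxPC3 (SD, n = 4 each, limma adjusted p = 7.06e-07). With controls below 1 FPKM, CASC19 passed the filter only through the gemcitabine libraries. A fall could not have been called, so that p-value gives no support for a rise. PVT1 did not pass in either line (limma adjusted p = 0.0950 in PANC-1 and 0.0935 in BxPC3). It passed in PANC-1 without gemcitabine replicate 1 (log2 change -0.15, limma adjusted p = 0.0222) and after GC removal (-0.14, limma adjusted p = 0.0269), and in BxPC3 with scaling to equal sums (0.16, limma adjusted p = 0.0282).

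**Figure D4:**
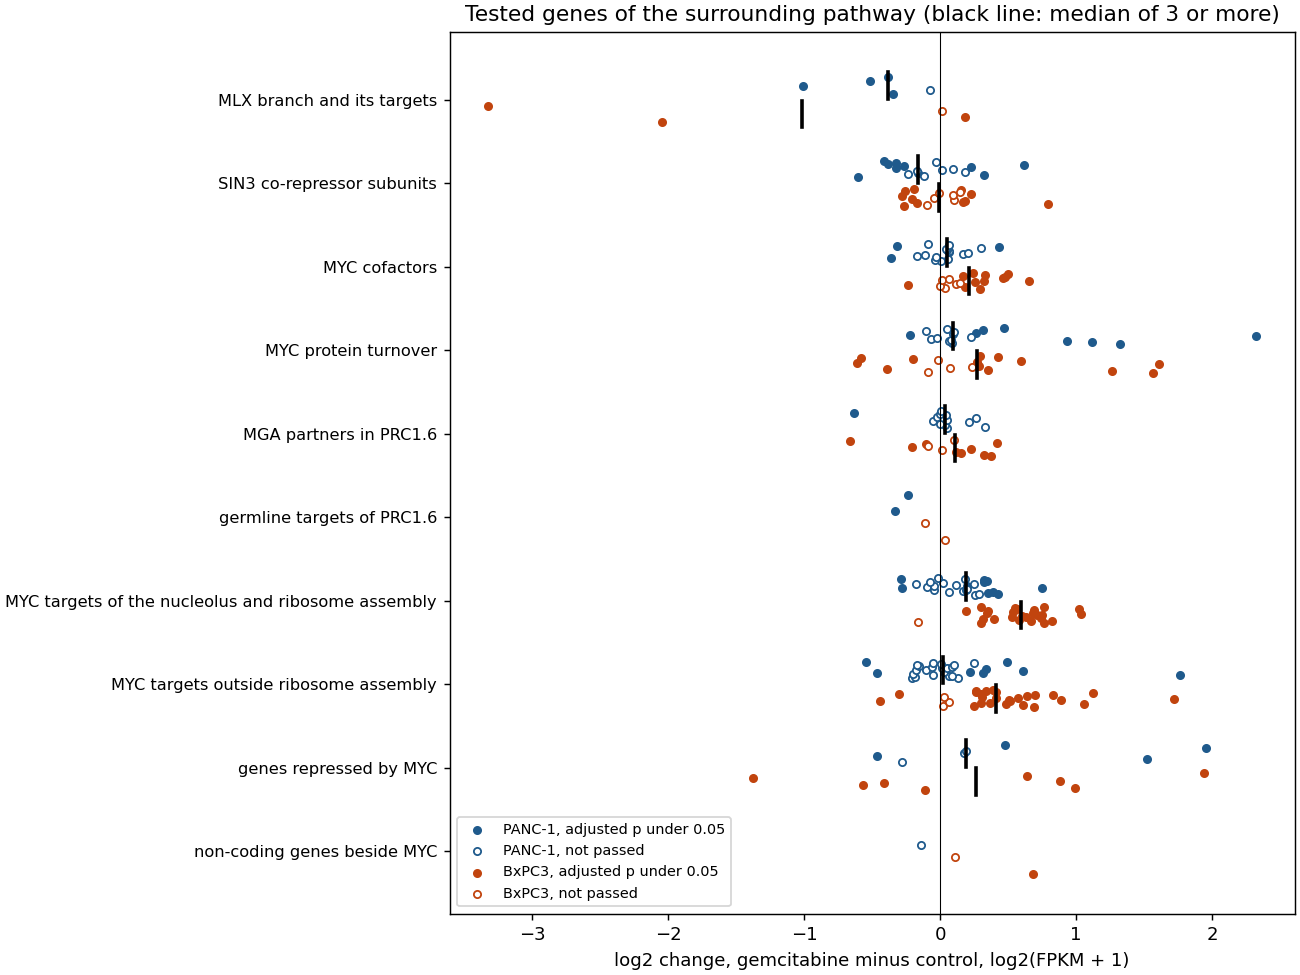
Log2 change, gemcitabine minus control (x axis), of each tested gene in the 10 lists around the network, PANC-1 above BxPC3 in each; points are genes, filled where limma's adjusted p was under 0.05, and black lines are medians of 3 or more genes. The nucleolar MYC targets have a median of 0.19 in PANC-1 and of 0.59 in BxPC3, where almost all lie right of 0, and TXNIP and ARRDC4 are the far left points of the MLX branch in BxPC3.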

How the data were processed

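RNA was measured by poly-A RNA-seq in 16 libraries, grouped by sample title. The authors deposited 1 table per line of FPKM values per gene and library, with gene lengths as another deposited measure, per the file headers. CASAVA and HISAT2 are named per the submitters' processing notes, without versions. The counting program and its strand setting were not given in the sources used here. Reads of genes that overlap on opposite strands thus cannot be told apart. A mouse build, mm10, is named, yet all 58735 identifiers are human with the start and end of GENCODE 29 on GRCh38, and lengths equal the merged exons. FPKM times length gave whole reads, within 0.02 reads, for 100% of values. A floor of 3 reads on 1 kb was 0.0803 to 0.138 FPKM and covers counting error only. Libraries of a group differed by more than counting noise (lowest chi-square over its degrees of freedom 2.07).

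In R 4.3.3, each table was tested whole by limma 3.58.1, with the trend and robust options of its empirical Bayes step (statmod 1.5.0), on log2(FPKM + 1), over genes with at least 1 FPKM in at least 4 libraries. For the lines, the interaction of line and treatment was fitted over 16 libraries. The procedure was tested on simulated data. Tables were read with pandas 2.3.3, and figures drawn with matplotlib 3.10.9. Ratios are of mean FPKM. Tried as alternatives were no filter, a pseudocount of 0.1, scaling by median ratio and to equal sums, limma without those options, only protein-coding genes, a block for the replicate number, limma-voom on recovered reads, removal of each library's GC trend, and each library left out. The members, lists and tests were chosen with earlier results of these data known. The genes named were all members, up to 2 tested genes with the smallest p per list and line, the 5 RNAs nearest to MYC, SMAD4, CDKN2A and the cell type markers; further genes named for the MLX branch, MXD3 and the MYC family were chosen after their values were seen.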

Additional observations from a re-analysis of the deposited data

Results flagged for a closer look

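PANC-1 gemcitabine replicate 1 lay far from the other 3 libraries of its group for 3 members. MYC had 64.8 FPKM in it, against 51.2 to 52.6 FPKM in the others. MXD4 had 7.17 FPKM, against 4.57 to 4.74 FPKM. MGA had 3.22 FPKM, against 4.19 to 4.35 FPKM. BxPC3 control replicate 4 had 5.35 FPKM of MYCL, against 4.78 to 4.87 FPKM in the other controls. These 4 were found among 44 groups of 4 values, of which chance marks about 1 in 20.

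The change with gemcitabine differed between the lines for 4 of 9 tested members by limma's test of the difference (PANC-1 minus BxPC3). Of all 14134 tested genes 51.8% were called in that test. The members were MYCL with a difference of 1.58, MXI1 with 0.64, MXD3 with 0.41 and MGA with 0.31 on the log2 scale. MYCL and MXD3 were below the filter in PANC-1 alone, and MYCL could fall there by no more than -0.29 on this scale, so its difference was largely set by its low level.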

How the results depend on the processing

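The number of members called in BxPC3 was 7, against 73.4% of 12215 tested genes, and ranged from 6 to 7 with each library left out. In PANC-1 it was 3, against 44.8% of 12508 tested genes, and ranged from 2 to 5 with each library left out. With limma-voom on recovered reads it was 5, where 2623 of all tested genes rose and 3070 fell. After removal of the GC trend it was also 5, where 3741 rose and 4494 fell, against 2595 and 3007 in the main fit. The libraries that moved it most were gemcitabine replicate 1 (5 called without it, against 69.8% of tested genes) and those whose loss ended the MXD1 call. For the difference it was 4 with every library left out in turn. The falls of MYCL, MXD4 and MXD3 (BxPC3), of MXI1 and MAX (both lines) and the rise of MXD1 in BxPC3 passed under every alternative run. MNT in BxPC3 did not pass with no filter (log2 change -0.22), with equal sums (-0.16) or after GC removal (-0.16). Values near 0 changed sign: MYC in BxPC3 was -0.0032 with median-ratio scaling and -0.0097 after GC removal, 0.089 with equal sums, and -0.0052 to 0.011 with a library left out. MYC in PANC-1 ranged from -0.031 to 0.080 and MNT in PANC-1 from -0.071 to 0.092 with a library left out. The MYC difference was -0.029 with equal sums and -0.035 to 0.076 with a library left out. The MXD3 difference did not pass with no filter, nor the MGA difference with equal sums. The cause was not tested. Of 680 counts of list genes under the alternatives, 625 stayed within 1.5 times the main count. Deviations of same-numbered libraries from their group means correlated by -0.38 to 0.19. With groups of 4 this does not settle whether the numbers pair the libraries. With the replicate number as a block, 7 members were called in BxPC3, where 4347 of 12215 tested genes rose and 4206 fell. In PANC-1 the block left 2 members called, where 2175 of 12508 tested genes rose and 2464 fell, and neither MXD1 nor ZCWPW1 passed. For the difference 4 members were called with the block, where 3256 of 14134 tested genes were higher and 3352 lower. Depth limits MYCL in PANC-1, with 19 to 52 reads per library.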
